A study of Homo sapiens
Mus musculus with 2 samples.

Results

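Goblet cells of the mouse colon that were low in genes of the deep crypt were examined in 2 single-cell RNA libraries. Members were chosen by their own transcript levels, in CPM, a gene's UMIs scaled to a common total per barcode (a UMI, or unique molecular identifier, marks 1 captured molecule). A barcode had to hold at least 2500 UMIs, at least 20000 CPM of the goblet gene Zg16 and under 2500 CPM of the colonocyte genes Prdx6, Tgm3 and Ces2c together. Among the barcodes kept in a library, those whose summed CPM of Agr2, Reg4, Spink4 and Txndc5 lay below the library's median were taken and are called low goblet cells. They numbered 146 of the 2402 barcodes deposited, 115 in replicate 1 and 31 in replicate 2. They were compared with the 115 and 32 goblet barcodes at or above the median, called high goblet cells, and with the remaining epithelium, 978 and 403 barcodes of at least 2500 UMIs that the goblet rule did not keep and that held under 3 UMIs of immune genes.

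Goblet cells make and release the mucus that covers the gut surface. Its scaffold is the gel-forming mucin Muc2, which is secreted together with Fcgbp, Clca1, Zg16 and the trefoil peptide Tff3. In the colon, goblet cells arise near the crypt base and move toward the crypt mouth as they mature, while the crypt base holds deep crypt secretory cells, which are known for Reg4 and lie between the stem cells. Agr2 and Txndc5 encode protein disulfide isomerases of the endoplasmic reticulum (ER), and Spink4 a secreted protease inhibitor.

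Both libraries hold untreated colonic epithelial cells of the same wild-type C57Bl6 mouse, whose age and sex the labels do not give, and human K562 leukaemia cells had been mixed in. The suspension came from EDTA extraction and enzymatic dissociation, and inDrop droplets were used. No condition was varied, so every comparison is between classes of cells within the libraries, and each p-value covers only the spread between 2 libraries of 1 animal, which may be technical. The libraries hold 1738 barcodes with 8602490 UMIs and 664 barcodes with 3951918 UMIs. The columns carry running numbers and not barcode sequences, so shared barcodes could not be counted by name; 0 barcodes had identical counts in both libraries.

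The label was first set against the levels of its markers. A UMI alone says little here, since Clca1 had one in 100% of low goblet cells of both libraries but also in 76.2% and 72.95% of the remaining epithelium and in 81.25% and 68.4% of the immune barcodes left out. The median depths were 6278 and 7889 UMIs in low goblet cells and 6846 and 9079 UMIs in immune barcodes. The level of Clca1 was 38370 and 27006 CPM in low goblet cells, against 952 and 733 CPM in the remaining epithelium and 686 and 318 CPM in immune barcodes. Zg16, which chose the cells, supplied 11.6% and 9.50% of all UMIs in low goblet cells of replicates 1 and 2, against 7.56% and 6.86% in high goblet cells and 0.334% and 0.283% in the remaining epithelium. The genes Zg16, Muc2, Clca1, Fcgbp and Tff3 together made up 21.1% and 17.3% of UMIs in low goblet cells, 13.7% and 12.1% in high goblet cells and 1.32% and 1.05% in the remaining epithelium. Low goblet cells were 9.40% of the barcodes of at least 2500 UMIs in replicate 1 (exact 95% interval 7.82% to 11.2%) and 6.39% in replicate 2 (4.38% to 8.95%). These intervals cover counting error only.

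The values that chose the cells are given as a description. Reg4 stood at 134 and 50.5 CPM in low goblet cells, against 1677 and 931 CPM in high goblet cells. Agr2 stood at 2695 and 3078 CPM in low goblet cells, against 5086 and 6287 CPM in high goblet cells. Spink4 stood at 2672 and 2836 CPM in low goblet cells, against 4986 and 4437 CPM in high goblet cells. The summed Prdx6, Tgm3 and Ces2c had a median of 758 and 951 CPM in low and 437 and 387 CPM in high goblet cells. The share of cells with a UMI of Reg4 was 43.5% and 32.3% in low goblet cells, 83.5% and 75% in high goblet cells and 48.9% and 58.1% in the remaining epithelium, so that whether the low goblet cells make it cannot be read from these counts. The 4-gene sum ran on without a gap at the line between the classes. The highest low goblet cells had 8215 and 8409 CPM in replicates 1 and 2, and the lowest high goblet cells 8231 and 8639 CPM. A median of 33 and 43 UMIs per low goblet cell stood behind the sum, and its 95% counting interval included the library's median in 65 of 115 and 12 of 31 low goblet cells. The line is the median of the sum, so the class is a range set by the rule. Whether it is a separate cell type was not tested. At the other thresholds, the lowest Zg16 level of a low goblet cell was 22641 and 26047 CPM, and the highest level of a barcode that missed only this criterion was 19239 and 19811 CPM. The highest colonocyte sum of a low goblet cell was 2151 and 2343 CPM, and the lowest of a barcode that missed only this criterion was 2893 and 2737 CPM. This criterion alone kept out 26 and 6 barcodes, which are part of the remaining epithelium. Zg16 therefore reached 161855 and 83490 CPM in single barcodes there, and 3 barcodes held 20.95% and 26.4% of its Clca1 UMIs. The total criterion alone kept out 65 and 14 barcodes, the largest with 2487 and 2492 UMIs, while the smallest low goblet cell had 2551 and 2854 UMIs.

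Depth differed somewhat between the classes. The median total was 6278 and 7889 UMIs in low goblet cells, 6863 and 9650.5 in high goblet cells and 5959.5 and 6361 in the remaining epithelium. Thinned to 2500 UMIs, a low goblet cell held a median of 1187 and 1219 genes, against 1322 and 1308 in high goblet cells and 1401.5 and 1378 in the remaining epithelium. Unthinned, the medians were 2122 and 2977 genes in low goblet cells, 2586 and 3282.5 in high goblet cells and 2504 and 2517 in the remaining epithelium. Mitochondrially encoded genes gave a median of 3.05% and 6.29% of UMIs in low goblet cells, 2.97% and 6.55% in high goblet cells and 4.55% and 9.32% in the remaining epithelium. Among the 5% of barcodes most like simulated doublets were 14 of 115 and 6 of 31 low goblet cells, against 6 of 115 and 3 of 32 high goblet cells.

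Between low and high goblet cells, 431 of 16549 genes differed at an adjusted p below 0.05 (edgeR's quasi-likelihood test on UMIs summed per class and library, Benjamini-Hochberg), or 2.60% of the genes tested. Of these, 213 were higher in low goblet cells (1.29%) and 218 lower (1.32%), and 425 of the 431 had the same sign in both libraries. The genes that chose the cells were left out of the test and of the library sizes, and edgeR's TMM normalization scaled the sums further. Fold changes therefore lie above the ratios of CPM, which are scaled to all UMIs, and this weighs most on small differences. The other genes come from the same cells, and those that vary with the choosing genes differ by that choice. The call depends on pairing the classes within libraries. Without the replicate block 37 genes differed.

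Of 14 secreted mucus-layer proteins tested, 8 rose in the low goblet cells, 0 fell and 6 did not pass the test. Over all genes 1.29% were higher and 1.32% lower. The median log2 fold change of the list was 0.37, against 0.00 over all genes. Clca1, a metalloprotease that processes mucus, was at 38370 and 27006 CPM in low goblet cells, against 14200 and 11209 CPM in high goblet cells. Both low values lay above both high values, and the log2 fold change was 1.48 ± 0.07 (SE; edgeR adjusted p = 1.33e-85). Fcgbp, a large protein that is cross-linked into the mucus gel, was at 13832 and 14137 CPM in low goblet cells, against 9083 and 10576 CPM in high goblet cells. Its log2 fold change was 0.64 ± 0.08 (edgeR adjusted p = 1.66e-13). Tff3 was at 14499 and 13715 CPM in low goblet cells, against 11299 and 11314 CPM in high goblet cells (log2 fold change 0.45 ± 0.08, edgeR adjusted p = 1.28e-06). Muc2 stood at 27967 and 23269 CPM in low goblet cells, against 26506 and 19495 CPM in high goblet cells. This was the smallest of these 4 differences, at 0.29 ± 0.07 (edgeR adjusted p = 0.00261), and the classes overlapped across libraries. It lay above the log2 ratio of the CPM of Muc2 in either library. Without the replicate block Clca1, Fcgbp and Tff3 were not called (edgeR adjusted p = 0.0586, 0.768 and 0.885).

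A large transcript takes up part of a cell's total and lowers the CPM of every other gene, the 4 choosing genes included. The split was therefore also made with the 5 mucus genes taken out of the total, an alternative chosen after seeing the data. It kept 106 of 115 and 30 of 31 low goblet cells in their class. The log2 fold change of Clca1 was then 1.11, that of Fcgbp 0.43 and that of Tff3 0.28, and 343 genes differed.

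**Figure D1:**
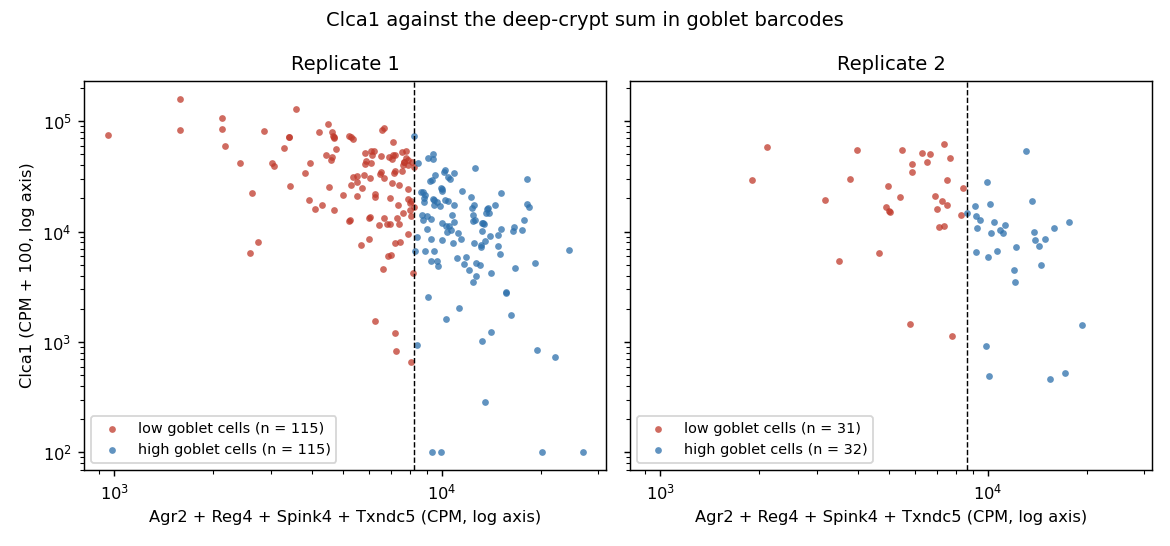
Each point is 1 goblet barcode of replicate 1 (left) or replicate 2 (right), with the summed CPM of Agr2, Reg4, Spink4 and Txndc5 on the x axis and the CPM of Clca1 plus 100 on the y axis, both logarithmic. Red points are low goblet cells and blue points high goblet cells, split at the dashed median of the x axis (8223 and 8639 CPM), and Clca1 is mostly higher on the left but varies widely within both classes.

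Within the low goblet cells, mucus transcripts varied over wide ranges. Clca1 ran from 558 CPM through a median of 33541 to 159930 CPM in replicate 1. In replicate 2 it ran from 1042 through 20987 to 61681 CPM. Muc2 ran from 8260 through 27158 to 64526 CPM in replicate 1 and from 4875 through 21848 to 52060 CPM in replicate 2. As a description across cells of 1 library, which share its depth and totals, the Spearman correlation of Zg16 with Clca1 was 0.68 in 115 cells and 0.75 in 31 cells. Zg16 correlated with Fcgbp at 0.63 and 0.83 and with Tff3 at 0.67 and 0.70. The pairs of Clca1, Fcgbp and Tff3, which did not choose the cells, lay at 0.69 and 0.71 for Clca1 with Fcgbp, 0.53 and 0.55 for Clca1 with Tff3, and 0.46 and 0.60 for Fcgbp with Tff3. Muc2 lay at 0.35 and 0.49 with Fcgbp, 0.21 and 0.46 with Clca1, 0.11 and 0.32 with Zg16 and -0.07 and 0.25 with Tff3. Its values were thus below those of the other pairs in replicate 1, and in replicate 2 also, though there by little for some pairs.

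Other secreted products did not share one direction. Lypd8, an antibacterial protein of the surface, was at 8901 and 6969 CPM in low goblet cells, against 6258 and 5917 CPM in high goblet cells (log2 fold change 0.50 ± 0.08, edgeR adjusted p = 7.63e-08). Dmbt1, a secreted scavenger glycoprotein, was at 838 and 1016 CPM in low goblet cells, against 186 and 352 CPM in high goblet cells, and 5092 and 4522 CPM in the remaining epithelium. Its log2 fold change against high goblet cells was 2.01 ± 0.12 (edgeR adjusted p = 1.81e-55). It had a UMI in 54 of 115 and 21 of 31 low goblet cells, and 3 cells held 28.6% of its UMIs in replicate 1 and 61.4% in replicate 2. Retnlb, a resistin-like antibacterial protein, was at 510 and 706 CPM in low goblet cells, against 572 and 317 CPM in high goblet cells, with a log2 fold change of 0.51 ± 0.14 (edgeR adjusted p = 0.0179). The CPM was higher in low goblet cells in replicate 2 only, where 3 of 31 cells held 72.5% of its 196 UMIs. The ribonuclease Ang4, which has close paralogs, was at 80.4 and 3.60 CPM in low goblet cells, against 11.5 and 9.50 CPM in high goblet cells. Its 58 UMIs in replicate 1 lay in 11 cells, with 63.8% of them in 3, and in replicate 2 alone its log2 ratio was -1.18. Sval1, Klk1 and Slpi did not pass the test. Slpi, a protease inhibitor, was at 1835 and 1910 CPM in low goblet cells, against 1384 and 2160 CPM in high goblet cells.

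Among 7 membrane mucins, which stay anchored at the cell surface, 3 rose and 0 fell, beside 1.29% higher and 1.32% lower over all genes. Muc4 was at 349 and 353 CPM in low goblet cells, against 245 and 190 CPM in high goblet cells, and 121 and 112 CPM in the remaining epithelium (log2 fold change against high goblet cells 0.78 ± 0.17, edgeR adjusted p = 0.000403). Muc13 was at 4356 and 3521 CPM in low goblet cells, against 3431 and 3468 CPM in high goblet cells, a log2 fold change of 0.32 ± 0.09 whose call was lost in 9 of 12 alternatives. Muc3, listed beside a similar gene Muc3a, was at 554 and 742 CPM in low goblet cells, against 171 and 462 CPM in high goblet cells, while the remaining epithelium held 4858 and 3653 CPM. Among 32 genes of granule trafficking and exocytosis, 3 rose and 1 fell. Those that rose were Stx3, a membrane fusion protein called in 4 of 12 alternatives, and Rab3b and Rab27a, small GTPases of regulated secretion. Rab3b was at 281 and 263 CPM in low goblet cells, against 119 and 152 CPM in high goblet cells and 10.8 and 11.4 CPM in the remaining epithelium (log2 fold change against high goblet cells 1.20 ± 0.20, edgeR adjusted p = 5.27e-07). The chloride channel gene Best2 was lower, at 188 and 123 CPM in low goblet cells, against 309 and 301 CPM in high goblet cells (-0.77 ± 0.18, edgeR adjusted p = 0.00227).

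Genes of the crypt top and surface epithelium were higher in the low goblet cells. Of 27 tested, 14 rose and 0 fell, with a median log2 fold change of 0.88, and 25 of 27 values were positive. The shares over all genes were 1.29% higher and 1.32% lower. Without the replicate block 2 rose, and Krt20 and Mxd1 were not called (edgeR adjusted p = 0.234 and 0.0721). Krt20, a keratin of differentiated epithelium, was at 2077 and 1661 CPM in low goblet cells, against 955 and 1045 CPM in high goblet cells (log2 fold change 1.04 ± 0.11, edgeR adjusted p = 7.93e-20). Summed over the remaining epithelium it was at 2531 and 1863 CPM, near the level in low goblet cells. That class is mixed, with 419 and 164 barcodes at 2500 CPM or more of the colonocyte sum and 559 and 239 below it. A UMI of Krt20 was found in 66.6% and 71.2% of its barcodes, against 97.4% and 96.8% of low goblet cells. Mxd1, a transcription factor that opposes Myc, was at 966 and 933 CPM in low goblet cells, against 417 and 472 CPM in high goblet cells and 608 and 450 CPM in the remaining epithelium. It lay 1.25 ± 0.13 above high goblet cells and 1.10 ± 0.12 above the remaining epithelium on the log2 scale (edgeR adjusted p = 6.51e-18 and 1.10e-18). Ceacam1, a cell adhesion molecule, was at 4388 and 4357 CPM in low goblet cells, against 2843 and 3028 CPM in high goblet cells and 2306 and 2145 CPM in the remaining epithelium.

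The same list divided when set against the remaining epithelium, which is in the same fit and shares the low goblet sums. There 7 members were higher in low goblet cells and 16 lower, with a median of -1.77 beside -0.13 over all genes. The shares over all genes were 6.45% higher and 8.16% lower. Car4, a carbonic anhydrase of absorptive cells, was at 59.6 and 108 CPM in low goblet cells, against 1252 and 1058 CPM in the remaining epithelium (log2 fold change -3.67 ± 0.17, edgeR adjusted p = 8.13e-102). Slc26a3, the chloride-bicarbonate exchanger of colonocytes, was at 98.4 and 101 CPM in low goblet cells, against 1077 and 856 CPM. Against high goblet cells these 2 genes lay at 0.09 and 0.29 and did not pass the test. The members higher than in the remaining epithelium were Ceacam1, Dhrs9, Sprr2a3, Mxd1, Plaur, Muc13 and Cdkn1a. In replicate 2 alone Car4 lay at -3.05 against the remaining epithelium. Sprr2a3 and the Gsdmc genes of this list have near-identical neighbours, and their counts are uncertain.

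**Figure D2:**
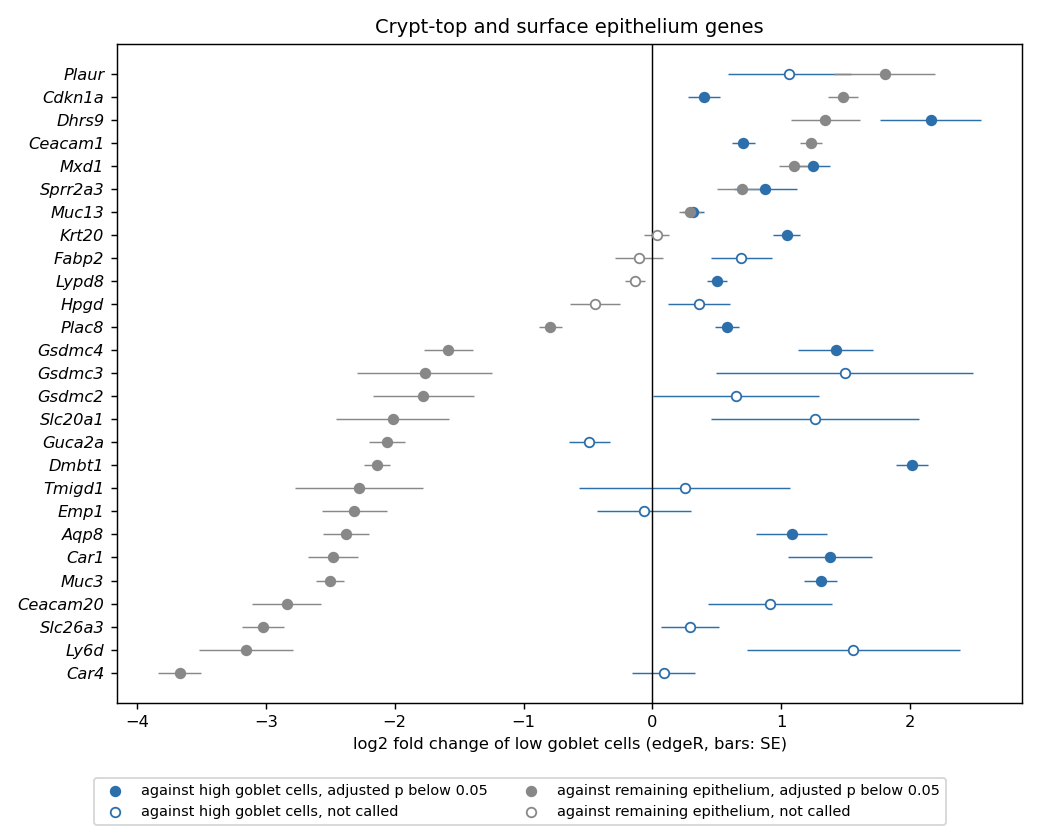
Points give the log2 fold change of low goblet cells for the 27 crypt-top and surface genes, in blue against high goblet cells and in grey against the remaining epithelium, with bars for the standard error and filled points for an adjusted p below 0.05. Nearly all blue points lie right of 0, whereas 16 filled grey points lie left of 0 and 7 right of it.

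Markers of colonocytes moved with this result. Of 7 colonocyte markers tested, 3 rose (Saa1, Krt20 and Aqp8) and 0 fell against high goblet cells. Over all genes 1.29% rose and 1.32% fell. The 8 colonocyte markers, Tgm3 of the choosing genes included, summed to 6285 and 5056 CPM in low goblet cells, 2267 and 2724 CPM in high goblet cells and 9639 and 7514 CPM in the remaining epithelium. Saa1 and Krt20 made up most of the sum in low goblet cells, and Slc15a1 was at 0 in replicate 2. Their part in the difference was not tested. With the limit on Prdx6, Tgm3 and Ces2c lowered to 1000 CPM, an alternative chosen after seeing the data, 92 and 23 barcodes remained as low goblet cells and 334 genes differed. Of the surface list 11 members then rose and 1 fell. Krt20 lay at 1.14 and Mxd1 at 1.23 on the log2 scale, and the call of Aqp8 was lost. Without doublet-like barcodes 15 members of the surface list rose and 1 fell.

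Several of the largest differences rested on few cells. Reg3b, an antibacterial lectin with the close paralog Reg3g, had the largest log2 fold change of the genes that met the naming rule, 3.29 ± 0.29. It was at 77.6 and 350 CPM in low goblet cells, against 8.98 and 41.2 CPM in high goblet cells and 581 and 425 CPM in the remaining epithelium. In replicate 1, 3 of 115 cells held 80.4% of its 56 UMIs, and in replicate 2, 3 of 31 cells held 97.9% of its 97 UMIs. Without doublet-like barcodes its value was 1.31 and not called (edgeR adjusted p = 0.373). The calls of Reg3g, the carboxylesterase Ces2e, which has near-identical family members, the amino acid transporter Slc6a14 and the dipeptidase Dpep1 were lost in the same way. Of all 5 genes the CPM was above that of high goblet cells in the remaining epithelium. Aqp4, a water channel, was at 170 and 209 CPM in low goblet cells, against 20.5 and 57.01 CPM in high goblet cells and 802 and 677 CPM in the remaining epithelium. It was called in all 12 alternatives, and its UMIs came from 20 of 115 and 9 of 31 low goblet cells, with 84.5% of those of replicate 2 in 3 cells. Its log2 ratio was 3.17 in replicate 1 and 1.97 in replicate 2, and that of Slc6a14 was 1.53 and 2.76.

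Ido1 encodes the enzyme that opens the tryptophan ring toward kynurenine. It was at 582 and 670 CPM in low goblet cells, against 135 and 209 CPM in high goblet cells and 32.4 and 46.7 CPM in the remaining epithelium. The low values lay above those of both other classes, by 2.06 ± 0.17 against high goblet cells and 4.28 ± 0.16 against the remaining epithelium on the log2 scale (edgeR adjusted p = 1.08e-31 and 9.54e-159). A UMI of Ido1 was found in 55.7% and 58.1% of low goblet cells, 19.1% and 31.3% of high goblet cells and 8.18% and 11.7% of the remaining epithelium. In immune barcodes left out of the epithelium it was found in 1 of 16 and 4 of 19, at median depths of 6846 and 9079 UMIs. These barcodes also held Krt20 at 1950 and 1762 CPM. Whether their epithelial transcripts come from free RNA or from epithelial cells was not tested. Immune cells of some kinds can make Ido1 themselves. In low goblet cells 3 cells held 21.4% of its UMIs in replicate 1 and 58.1% in replicate 2. With every barcode thinned to 2500 UMIs the shares were 47.8% and 45.2% in low goblet cells, against 12.2% and 25% in high goblet cells.

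Further genes of the naming rule that rose against high goblet cells were Slfn4 (log2 fold change 1.85 ± 0.30), a member of the Schlafen family, Psca (2.17 ± 0.43), a small membrane-anchored antigen, and Apol10a (2.13 ± 0.29). Slfn4 had log2 ratios of 1.22 in replicate 1 and 2.998 in replicate 2. Psca was at 73.4 and 54.1 CPM in low goblet cells, against 17.96 and 12.7 CPM in high goblet cells and 3.40 and 3.11 CPM in the remaining epithelium. Saa1, an acute-phase protein with near-identical family members, was at 3884 and 2951 CPM in low goblet cells, against 1132 and 1226 CPM in high goblet cells and 3102 and 2329 CPM in the remaining epithelium. Its log2 fold change against high goblet cells was 1.67 ± 0.10 (edgeR adjusted p = 2.26e-60). Beside 1.29% higher and 1.32% lower over all genes, 3 of 21 cytokine receptors and immune mediators rose, Ido1, Ifngr1 and Peli3, and 1 fell. In the list of interferon-stimulated and MHC class II genes 2 of 21 rose, Irf7 (1.34 ± 0.29) and Gbp2, and 0 fell. Gbp2 was at 425 and 227 CPM in low goblet cells, against 219 and 279 CPM in high goblet cells, so that it was lower in replicate 2 alone, by a log2 ratio of -0.19. Antimicrobial products were 7 higher and 2 lower of 17, with Reg3b, Reg3g, Ang4, Retnlb, Dmbt1, Saa1 and Lypd8 on one side and Pla2g2a and Mptx1 on the other.

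**Figure D3:**
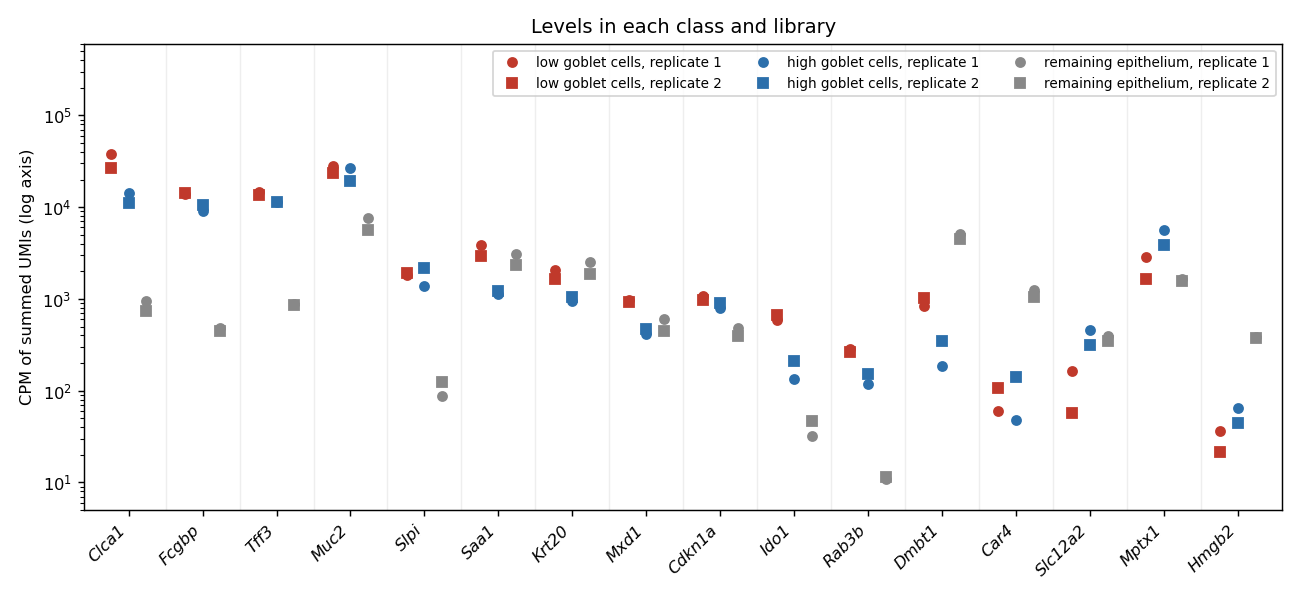
CPM of summed UMIs on a logarithmic axis for 16 genes, with low goblet cells in red on the left of each column, high goblet cells in blue and the remaining epithelium in grey; circles are replicate 1 and squares replicate 2. Ido1 stands at 582 and 670 CPM in low goblet cells and is lower in each class to the right, while Car4 and Hmgb2 are low in both goblet classes.

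Deep crypt genes that had not chosen the cells were mostly lower. Of 14 tested, 2 rose and 7 fell, with a median log2 fold change of -0.91, beside 1.29% higher and 1.32% lower over all genes. Mptx1, a pentraxin gene, was at 2866 and 1632 CPM in low goblet cells, against 5566 and 3861 CPM in high goblet cells (-0.94 ± 0.09, edgeR adjusted p = 2.68e-21), and at 1638 and 1574 CPM in the remaining epithelium. The secreted phospholipase Pla2g2a was at 20.8 and 7.21 CPM in low goblet cells, against 93.7 and 31.7 CPM in high goblet cells (-1.99 ± 0.38, edgeR adjusted p = 2.56e-05). The chemokine Ccl6 was at 1172 and 1049 CPM in low goblet cells, against 2114 and 1641 CPM in high goblet cells (-0.63 ± 0.11, edgeR adjusted p = 1.02e-06). Nov, Slc12a8, Plpp1 and Cd177 fell as well. Retnlb and Ang4 are the members that rose. Since genes of this list vary with the choosing genes, these directions are not independent of the choice.

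Crypt-base and growth genes outside that list gave calls in some lists, beside 1.29% higher and 1.32% lower over all genes. Slc12a2, the basolateral sodium-potassium-chloride cotransporter of secreting crypt cells, was at 164 and 57.7 CPM in low goblet cells, against 455 and 314 CPM in high goblet cells and 394 and 352 CPM in the remaining epithelium. It lay at -1.54 ± 0.18 against high goblet cells (edgeR adjusted p = 4.13e-15), at -1.33 in replicate 1 and at -2.32 in replicate 2. Sox9, a crypt-base transcription factor, was at 9.70 and 7.21 CPM in low goblet cells, against 42.3 and 19 CPM in high goblet cells and 137 and 113 CPM in the remaining epithelium. Its log2 ratio against high goblet cells was -1.93 in replicate 1 and -1.23 in replicate 2. Of 20 Wnt target and stem genes 1 rose, Aqp4, and 2 fell, Sox9 and Slc12a2. Ccnd2, a cyclin of the G1 phase, was at 262 and 198 CPM in low goblet cells, against 683 and 390 CPM in high goblet cells (-1.10 ± 0.15, edgeR adjusted p = 2.92e-10). Of 19 genes of cell cycle exit 3 rose, Mxd1, Ccng2 and the kinase inhibitor Cdkn1a, and 2 fell, Ccnd2 and Btg2; Btg2 had a log2 ratio of 0.18 in replicate 2 alone and was called in 4 of 12 alternatives. None of 30 replication and mitosis genes passed the test between the goblet classes. Their median was -0.38. The level of Hmgb2, the member described further on, was 36.03 and 21.6 CPM in low goblet cells, against 64.2 and 44.3 CPM in high goblet cells.

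**Figure D4:**
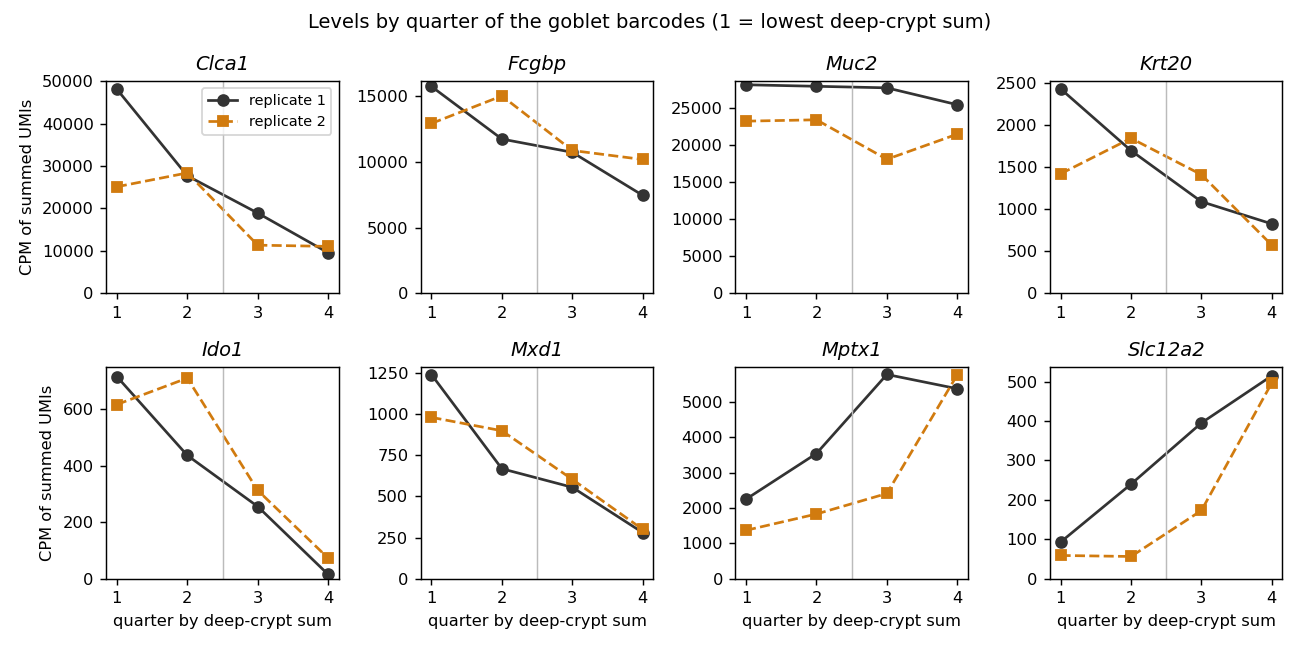
CPM of summed UMIs for 8 genes in 4 bins of equal size of the goblet barcodes of each library, ordered along the x axis by the deep-crypt sum, with replicate 1 as solid lines and replicate 2 as dashed lines; the grey line parts low from high goblet cells. Mxd1 and Ido1 are lowest in the bin with the highest sum in both libraries, Slc12a2 is highest there, and Muc2 changes little.

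The 4 bins of goblet barcodes, ordered by the choosing sum, show the same genes at finer steps and are a description only. Ido1 stood at 716, 437, 256 and 15.3 CPM from the lowest to the highest bin in replicate 1, and at 617, 710, 313 and 73.1 CPM in replicate 2. Slc12a2 stood at 93.1, 240, 395 and 515 CPM in replicate 1 and at 59.1, 56.6, 173 and 497 CPM in replicate 2. Muc2 stood between 25377 and 28065 CPM in replicate 1 and between 18027 and 23347 CPM in replicate 2. For Clca1, Fcgbp, Krt20 and Ido1 the lowest bin was above the next one in replicate 1 and below it in replicate 2.

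Ribosomal protein genes, a group taken up after the values had been seen, were lower in low goblet cells. Of 82 tested, 0 rose and 68 fell against high goblet cells, with a median of -0.78. Against the remaining epithelium 0 rose and 69 fell, with a median of -0.99. Over all genes 1.32% and 8.16% were lower in these 2 comparisons. They made up 2.93% and 2.87% of UMIs in low goblet cells, against 5.72% and 4.90% in high goblet cells and 6.69% and 6.60% in the remaining epithelium. Depth per cell and the number of genes found at equal depth were also lower in low than in high goblet cells, and their part in this was not tested. The count against high goblet cells was 45 of 80 after thinning every barcode to 2500 UMIs, and 0 of 82 without the replicate block. The medians were then -0.79 and -0.77, so the calls were fewer while the size of the difference changed little.

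In the machinery that makes and exports secreted proteins few genes passed the test between the goblet classes, and those in the ER lists were lower in low goblet cells. Of 42 genes of ER folding 0 rose and 3 fell, Pdia5, Pdia6 and the transcription factor Creb3l1. Pdia5 was called in 5 of 12 alternatives. Of 51 genes of ER translocation and vesicle coats 0 rose and 4 fell, Spcs2, Rpn1, Arf4 and Lman1. Spcs2, of the signal peptidase, had log2 ratios of -0.41 in replicate 1 and -1.48 in replicate 2, and Lman1, a cargo receptor, of -0.63 and -1.39. Pdia6, a disulfide isomerase, was at 633 and 429 CPM in low goblet cells, against 988 and 668 CPM in high goblet cells (-0.50 ± 0.13, edgeR adjusted p = 0.007). Over all genes 1.32% were lower. The medians of the ER lists were -0.20 and -0.27, against 0.00 over all genes, and 10 of 42 and 5 of 51 log2 fold changes were positive. Of 45 mucin glycosylation genes 1 rose, the sialyltransferase St3gal4 (0.90 ± 0.21), and 1 fell, Gne (-0.79 ± 0.21), an enzyme of sialic acid synthesis. Of 18 secretory transcription factors Klf4 rose, with a call in 3 of 12 alternatives, and Creb3l1 and Sox9 fell, with calls in 9 and 7 of 12. Atoh1, the factor that commits cells to the secretory lineage, was at 276 and 234 CPM in low goblet cells, against 384 and 212 CPM in high goblet cells, and did not pass the test.

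Smaller groups completed the comparison with high goblet cells, beside 1.29% higher and 1.32% lower over all genes. Of 26 immediate early and dissociation genes 0 rose and 5 fell, with Fosb at -1.48 ± 0.26 and Ier2 at -0.88 ± 0.19 the clearest. Of 19 genes of the BMP pathway, which is active toward the crypt top, the ligands Bmp3 and Bmp4 rose, both at 108 CPM or less and with calls lost in 7 and 5 of 11 alternatives. Bmp4 had log2 ratios of 0.95 in replicate 1 and 2.01 in replicate 2. Of 15 Notch genes Hey1 rose, with a call in 6 of 12 alternatives. Of 27 ion and water transport genes 4 rose, Slc5a8, Atp12a, Aqp4 and Aqp8, and 2 fell. The call of Slc5a8 was lost without doublet-like barcodes, that of Aqp8 with the lower colonocyte limit, and both without the replicate block. Of 24 lysosome and autophagy genes Sqstm1 rose, and none of 22 cell death genes was called. Of 13 mitochondrially encoded genes 3 rose and 0 fell. No marker of T cells, plasma cells, macrophages, enteroendocrine cells, tuft cells, stromal cells or red cells was called against high goblet cells. T cell markers summed to 41.6 and 108 CPM in low goblet cells, against 21.8 and 57.01 CPM in high goblet cells, and 3 or more UMIs of immune genes were found in 2 and 2 low goblet cells, against 1 and 0 high goblet cells. Their part in the results was not tested.

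**Figure D5:**
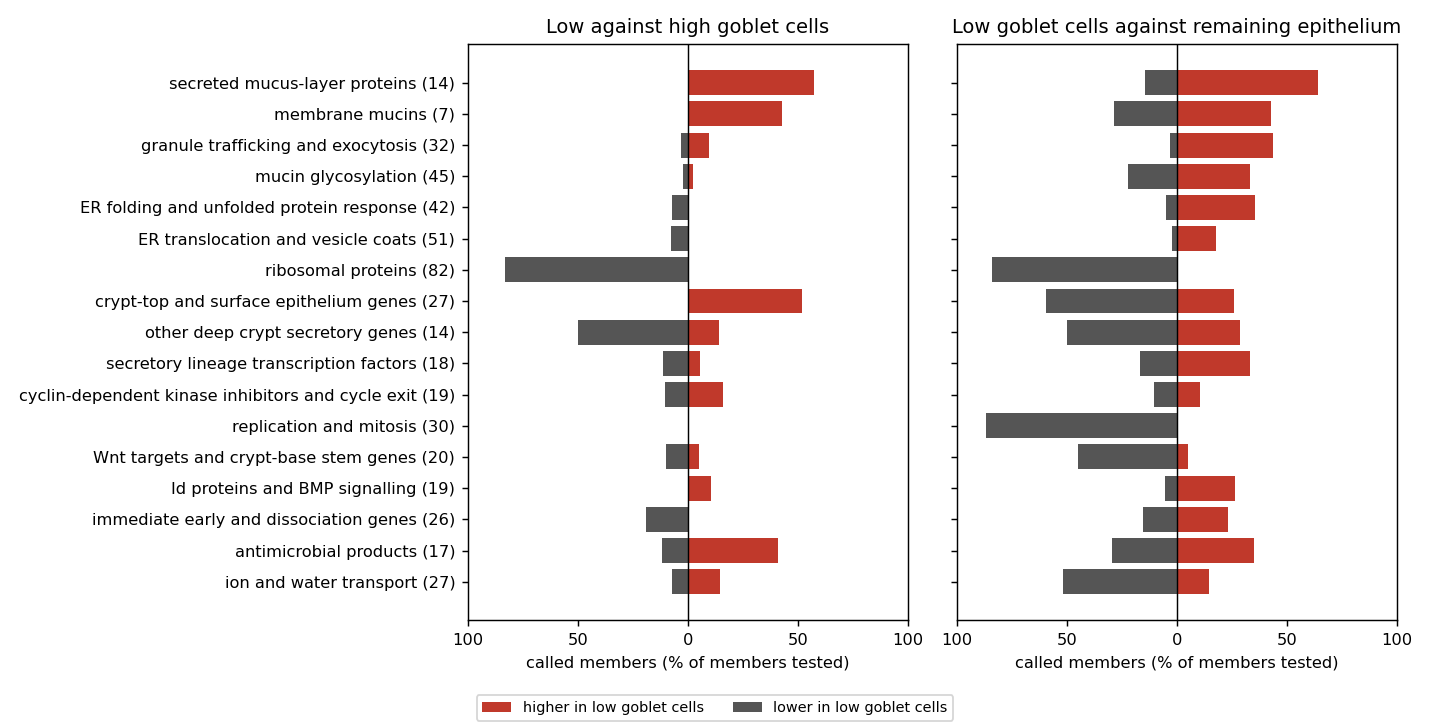
Bars give the share of tested members of each gene list that were called higher (red, to the right) or lower (grey, to the left) in low goblet cells, against high goblet cells in the left panel and against the remaining epithelium in the right panel; the number tested is in brackets. ER lists point left in the left panel and right in the right panel, and the surface list points right in the left panel and mostly left in the right panel.

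Against the remaining epithelium 2418 of 16549 genes differed (edgeR, 14.6%), 1067 higher in low goblet cells (6.45%) and 1351 lower (8.16%), and the median log2 fold change of all genes was -0.13. Because Zg16 chose the goblet barcodes, the higher level of goblet genes here describes the choice. Clca1 lay at 5.53 ± 0.09, Fcgbp at 5.17 ± 0.09, the trypsin inhibitor Spink1 at 5.10 ± 0.10 and Tff3 at 4.28 ± 0.09. Of 14 mucus proteins 9 were higher and 2 lower, Dmbt1 and Wfdc2. The laminin subunit gene Lama4 was at 949 and 1398 CPM in low goblet cells, against 30.8 and 38.7 CPM in the remaining epithelium (5.30 ± 0.14). Ceacam19 was at 338 and 692 CPM in low goblet cells, against 12.95 and 23.2 CPM. The largest folds included 1700017I07Rik, Olfr448, C19orf25 and Cyp4x1os, the last named as an antisense gene and Olfr448 belonging to a large receptor family, and their counts are uncertain. The symbol C19orf25 is written in the human style.

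Part of the secretory machinery was higher than in the remaining epithelium. Few genes of these lists passed the test between the goblet classes, so a higher level here does not by itself set low goblet cells apart. Hspa5, for 1, had 1463 and 390 UMIs in low goblet cells and 1818 and 617 UMIs in high goblet cells. Of 42 ER folding genes 15 rose, 2 fell and 25 did not pass the test, and of 51 genes of ER translocation and vesicle coats 9 rose, 1 fell and 41 did not pass, against 6.45% higher and 8.16% lower over all genes. Hspa5, the main ER chaperone, was at 2027 and 1405 CPM in low goblet cells, against 1203 and 1012 CPM in the remaining epithelium (0.89 ± 0.10, edgeR adjusted p = 3.91e-17). Of 32 granule genes 14 rose and 1 fell, with Bcas1 at 3.49 ± 0.13 and Rab27a at 3.72 ± 0.17. Of 45 glycosylation genes 15 rose and 10 fell. Gcnt3, which builds branched mucin glycans, was at 974 and 717 CPM in low goblet cells, against 165 and 117 CPM (2.85 ± 0.13), whereas the galactosyltransferase B4galt1 was at 41.6 and 43.2 CPM, against 219 and 185 CPM (-2.02 ± 0.23). Its relative B4galt2 lay on the other side, at 77.6 and 79.3 CPM in low goblet cells, against 1.78 and 3.46 CPM, with a log2 ratio of 5.36 in replicate 1 and 4.53 in replicate 2. Of 18 secretory transcription factors 6 rose, Atoh1, Spdef, Gfi1, Foxa2, Foxa3 and Klf4, and Creb3l1, Sox9 and Sox4 fell. The receptor subunits Il13ra1 (2.04 ± 0.13) and Il4ra (1.12 ± 0.24), which receive signals that drive mucus production, were higher too.

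Genes of growing cells were lower than in the remaining epithelium. Of 30 replication and mitosis genes 0 rose and 26 fell, with a median of -2.31. Hmgb2, a chromatin protein of cycling cells, was at 36.03 and 21.6 CPM in low goblet cells, against 384 and 371 CPM in the remaining epithelium (-3.34 ± 0.23, edgeR adjusted p = 2.90e-46). The kinase inhibitor Cdkn1a was higher, at 1064 and 966 CPM in low goblet cells, against 483 and 391 CPM (1.48 ± 0.12). Of 20 Wnt and stem genes 1 rose and 9 fell. Of 19 genes of the BMP pathway 5 rose and 1 fell, with Id1 at 1.28 ± 0.12 and Id3 at 1.29 ± 0.14, both targets of BMP signals. Neither Id gene was called between the goblet classes, so these levels do not set low goblet cells apart from high ones. Id1 had 638 and 204 UMIs in low and 655 and 243 UMIs in high goblet cells. For Id3 the counts were 375 and 104 UMIs in low and 523 and 166 UMIs in high goblet cells. Dll1, a Notch ligand of early secretory cells, had 0 UMIs in the low goblet cells of both libraries, against 11.2 and 13.1 CPM in the remaining epithelium. Taking 3 UMIs over both low goblet sums as the most that a count of 0 allows, it was at least 3.93-fold lower. Of 15 Notch genes 1 rose and 2 fell, against 6.45% higher and 8.16% lower over all genes.

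Immune-facing genes divided. Of 21 interferon-stimulated and MHC class II genes 4 rose, among them Gbp2 (1.48 ± 0.15), and 8 fell, with Cd74, the MHC class II invariant chain, at 259 and 288 CPM in low goblet cells, against 704 and 911 CPM in the remaining epithelium (-1.27 ± 0.14). Of 21 cytokine receptors and mediators 5 rose and 4 fell. Peli3, a ubiquitin ligase of innate signalling, was at 145 and 375 CPM in low goblet cells, against 7.61 and 11.1 CPM (4.89 ± 0.23). Antimicrobial products were 6 higher and 5 lower of 17, transport genes 4 higher and 14 lower of 27, and membrane mucins 3 higher and 2 lower of 7. The counts were 6 and 4 of 26 for immediate early genes, 3 and 4 of 24 for lysosome genes, 2 and 6 of 22 for cell death, 2 and 2 of 19 for cell cycle exit, 4 and 7 of 14 for deep crypt genes and 0 and 9 of 13 for mitochondrially encoded genes. Over all genes 6.45% were higher and 8.16% lower, and the lysosome and cell cycle exit counts are not far from these shares. Of markers of other cells, 1 of 6 of tuft cells (Avil), 1 of 3 of macrophages (Csf1r) and 1 of 7 of enteroendocrine cells (Sct) were higher. The list medians were -0.15, 0.30 and -0.37. Avil had a UMI in 34.8% and 45.2% of low and 35.65% and 46.9% of high goblet cells. Csf1r had 3 and 8 UMIs in low goblet cells and log2 ratios of 0.76 in replicate 1 and 3.09 in replicate 2. The call of Sct was lost in 8 of 11 alternatives. Lower were 5 colonocyte markers and 3 haemoglobin genes. In the remaining epithelium of replicate 1, 972 of 986 UMIs of Hbb-bs came from 1 barcode. Without replicate 1 the log2 ratio of Hbb-bs was -1.12 and that of Hba-a2 1.57. These ratios rest on almost no counts. In replicate 2 Hbb-bs had 0 UMIs in low goblet cells and 2 in the remaining epithelium, and Hba-a2 had 1 and 3.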

How the data were processed

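The deposited tables hold whole-number UMI counts per gene and barcode from inDrop libraries, without normalization. The submitters' processing notes name the builds GRCh38 and GRCm38. Which aligner and annotation were used, whether counting used strand, and how barcodes were filtered is not given in the sources used here. The values of near-identical, overlapping and antisense genes are therefore uncertain. CPM scales UMIs to the total of a barcode or of a sum of barcodes. The K562 cells were not analysed here.

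UMIs were summed per class and library into 6 sums, and the 16549 genes with at least 20 UMIs over the sums entered edgeR's quasi-likelihood test (version 4.0.16 in R 4.3.3, TMM normalization). Library was a block in the model, which left out the 8 choosing genes. The classes come from the same libraries, so the pairing is by construction. The fit had 2 residual degrees of freedom and a common dispersion of 0.00841, and a p-value leans on the dispersion shared by all genes. Sums held 249176 to 6095068 UMIs of tested and untested genes other than the choosing ones. A doublet score compared each barcode's 50 nearest neighbours with simulated pairs, 2 per barcode (Python 3.11.15, scikit-learn 1.9.0). Doublet-like barcodes were left in, and leaving them out was an alternative.

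In each contrast the genes named were those with an adjusted p below 0.05, the same sign in both libraries and at least 50 CPM in the higher class, the 12 largest changes in each direction. Up to 4 called members of each of the gene lists with the smallest p, and the cell type markers, were added. Other list members named beside these were chosen after their values were seen. Members and lists were chosen with earlier results of these data known. Alternatives covered normalization, DESeq2 1.42.0, filters, depth, doublets, mitochondrial share and class limits.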

Additional observations from a re-analysis of the deposited data

How the results depend on the processing

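For low goblet cells against high goblet cells the count of 431 genes dropped to 232 with the DESeq2 test, to 165 with barcodes thinned to 2500 UMIs, where 12265 genes were tested, and to 37 without the replicate block, 27 higher and 10 lower. The share of higher calls was 49.4% with the block. Other alternatives gave 334 to 501. For low goblet cells against remaining epithelium the count of 2418 was 1121 with DESeq2, of which 59.5% were higher, against 44.1%, 1171 after thinning and 1355 without the replicate block. Other alternatives gave 2080 to 2431. The causes were not tested beyond the fewer genes after thinning. Of 109 named genes, 46 lost their call against high goblet cells without the replicate block, Clca1, Fcgbp, Tff3, Krt20, Mxd1 and Mptx1 among them. The 109 include cell type markers that were not called with the block either, so the genes that could lose a call were fewer. Ido1, Dmbt1, Saa1, Slc12a2, Aqp4, Slfn4, Apol10a, Ccng2, Atp12a, Hn1l, Rasd1 and Pla2g2a were called in all 12 alternatives with a test. Single libraries allow no test, and counts of calls could not be had from them. Their log2 ratios were -1.18 to 2.89 for Ang4, -1.31 to 0.18 for Btg2 and -0.19 to 1.10 for Gbp2 against high goblet cells, and -4.26 to 1.57 for Hba-a2 against the remaining epithelium. Replicate 2 has 31 low goblet cells, and genes below about 20 CPM rest on few UMIs in it.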
